A study of Homo sapiens with 18 samples.

Results

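The promoter peaks of RNA polymerase II (RNAPII) described here came from MCF10A-ErSrc, a human breast epithelial line that carries an inducible v-Src kinase, and the comparison was between non-treated cells (NT) and cells transformed with 2 µM tamoxifen (TAM), both incubated for 4 h with DMSO, the vehicle of triptolide (TPL). Each condition had 2 ChIP-Seq replicates made with the RNAPII antibody 8WG16, but the peaks were deposited as 1 list per condition, with no height, score or read count. All 22278 peaks of the NT list (11222) and of the TAM list (11056) were used, out of 39395 in the 4 lists of the series, and the lists of cells that received TPL (8653 peaks in NT + TPL, 8464 in TAM + TPL) served only to show where NT and TAM differed under another treatment. RNA-Seq of the same conditions, with 2 replicates each, gave the RNA of the genes beneath the peaks. An effect of tamoxifen that does not pass through Src cannot be told apart from transformation in these groups.

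RNAPII starts transcription from a promoter after general factors, among them TFIIH, have opened the DNA at the transcription start site (TSS). At many genes the enzyme then pauses a short way downstream, so that a ChIP peak sits over the TSS, and at heavily transcribed genes the signal spreads into the gene body. The 8WG16 antibody prefers the unphosphorylated tail of the largest subunit, the form that assembles at promoters. In this cell model Src is known to set off an inflammatory loop of NF-kB, IL6 and STAT3.

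The lists were not named alike, and whether their peaks were called with different settings cannot be told from the names. The peak names of the NT list carry a cutoff of 0.02, as do those of both TPL lists, and the names of the TAM list carry a q of 0.1. In the TAM list 4584 names (41.5%) end in a letter, 4570 of them in an a, and no name of the other 3 lists does. What the letters stand for is not given in the sources used here. The peak names run up to 27010 in NT and 21866 in TAM, above the number of peaks listed. Of the NT peaks 90.1% held a TSS of the GENCODE annotation and 99.6% lay within 1000 bases of one, against 85.5% and 99.6% of the TAM peaks. Distances to the nearest peak are therefore to listed peaks, and peaks that the lists leave out may lie closer. With 1 list per condition no difference between NT and TAM peaks has a replicate check, and the part that unequal settings may have in any of them was not tested.

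Promoters of 7 genes stand for the patterns that follow, each shown as the 120 bases before the main TSS (that of the Ensembl canonical transcript), read 5′ to 3′ on the gene's strand from build GRCh37 (hg19), the build of the peaks. Capitals mark matches to any of the searched motifs, on either strand. SERPINE2, S100A8 and IFIT1 had a peak over the main TSS in TAM only, and CLDN1, PLK1, BUB1 and TOP2A in NT only.
SERPINE2 (chr2:224904004-224904123, minus strand): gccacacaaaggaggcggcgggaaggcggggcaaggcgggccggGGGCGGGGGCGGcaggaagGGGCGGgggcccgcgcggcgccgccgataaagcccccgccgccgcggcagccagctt
S100A8 (chr1:153363550-153363669, minus strand): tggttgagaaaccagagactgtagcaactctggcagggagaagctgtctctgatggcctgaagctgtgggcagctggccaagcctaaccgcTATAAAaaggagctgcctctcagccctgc
IFIT1 (chr10:91152260-91152379, plus strand): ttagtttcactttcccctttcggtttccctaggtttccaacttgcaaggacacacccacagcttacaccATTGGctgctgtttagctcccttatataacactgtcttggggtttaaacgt
CLDN1 (chr3:190040236-190040355, minus strand): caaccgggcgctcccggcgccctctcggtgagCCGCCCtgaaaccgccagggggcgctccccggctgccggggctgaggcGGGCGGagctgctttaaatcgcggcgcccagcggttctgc
PLK1 (chr16:23690090-23690209, plus strand): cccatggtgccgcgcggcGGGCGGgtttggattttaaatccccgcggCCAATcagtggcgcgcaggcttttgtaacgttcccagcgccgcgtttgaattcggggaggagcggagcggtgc
BUB1 (chr2:111435641-111435760, minus strand): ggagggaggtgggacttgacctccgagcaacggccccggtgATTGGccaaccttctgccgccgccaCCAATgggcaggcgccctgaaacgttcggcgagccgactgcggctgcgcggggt
TOP2A (chr17:38574149-38574268, minus strand): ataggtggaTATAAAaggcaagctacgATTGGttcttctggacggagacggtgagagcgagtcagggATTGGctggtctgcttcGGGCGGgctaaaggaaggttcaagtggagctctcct

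Most listed peaks had a partner in the other condition. Of the 11222 NT peaks, 9551 (85.1%, Wilson 95% interval 84.4 to 85.8) shared at least 1 base with a TAM peak, and 1671 did not. Of the 11056 TAM peaks, 10392 (94.0%, 93.5 to 94.4) shared a base with an NT peak, and 664 did not. Intervals of this kind cover counting error only. The peaks without a partner were the narrow ones of each list. Their median width was 287 bases in NT against 706 bases for NT peaks with a partner, and 217 against 423 bases in TAM. Between the lists with TPL, whose names carry the same cutoff, 85.8% of NT + TPL peaks and 89.6% of TAM + TPL peaks had a partner in the other.

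Peaks were narrower in TAM than in NT. The median width was 632 bases in NT (quartiles 369 and 1029.75) and 406 bases in TAM (247.75 and 671), and the sequence covered was 10559.7 kb against 6817.2 kb. Peaks under 300 bases made up 16.0% of the NT list and 36.4% of the TAM list, and peaks over 2000 bases 6.72% and 3.18%. Among the 8564 NT and TAM peaks that overlapped each other and nothing else, the TAM peak was the narrower in 88.6%, lay wholly inside the NT peak in 73.3%, and had a median log2 width ratio (TAM over NT) of -0.50. The names that end in a letter moved with the widths, since lettered TAM peaks had a median of 725 bases and the rest 266, and the median log2 ratio was -0.34 in pairs with a lettered TAM peak and -0.65 in the others. With TPL, where the names carry the same cutoff, the TAM peak was the narrower in 70.2% of 6881 such pairs, with a median log2 ratio of -0.20.

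Both edges of the peak lay closer to the TSS in TAM. At the 8102 protein-coding genes with a peak over the main TSS in both lists, the upstream edge lay at a median of 329 bases before the TSS in NT and 232 bases in TAM, and the downstream edge 355 and 209 bases after it. Across the 9792 protein-coding genes with a peak in NT or TAM, 97.1% had an NT peak and 85.6% a TAM peak over the TSS itself. At 500 bases downstream these shares were 33.6% and 17.1%, and at 1000 bases 12.5% and 5.6%. The lists with TPL gave 21.8% for NT + TPL and 15.6% for TAM + TPL at 500 bases downstream. In the plot of peak cover around the TSS, NT lay above TAM at every position plotted from the TSS to 500 bases downstream. Peak cover is not signal. The paper reports more RNAPII on promoters in TAM than in NT cells, and ChIP signal was not analysed here.

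**Figure D1:**
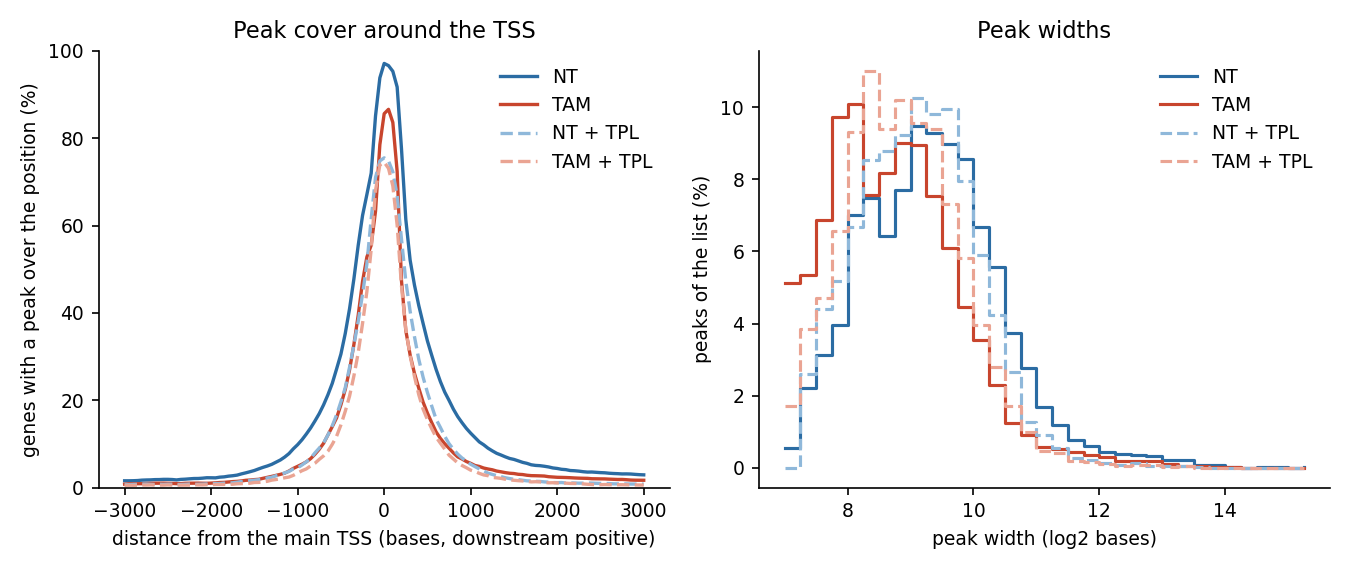
Left, share of 9792 protein-coding genes with a peak over each position from 3000 bases before to 3000 bases after the main TSS (percent of genes against distance in bases), for the 4 lists. Right, distribution of peak widths (log2 bases) in each list. The NT curve lies above the TAM curve on both sides of the TSS, with 33.6% against 17.1% at 500 bases downstream, and the TAM widths lie lower, with medians of 632 bases in NT and 406 bases in TAM.

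The widest peak of both lists lay over LAMB3, a laminin chain of the epithelial basement membrane, with 46310 bases in NT (chr1:209781371-209827680) and 44405 bases in TAM. The next in NT, of 42801 bases, held the TSS of the non-coding LINC02939. PLEC, which encodes the cytoskeletal linker plectin, had 32004 bases in NT and 28029 bases in TAM. TNS4, a tensin of focal adhesions, had 30791 bases in NT and 2751 in TAM. KRT7, a simple-epithelium keratin, had 27366 bases in NT and 4188 over the main TSS in TAM, where a further TAM peak of 12748 bases lay inside the same NT peak, over the TSS of KRT7-AS. In TAM the next places were taken by CTSB, a lysosomal protease, with 18334 bases against 1621 in NT, by NDRG1, a stress and hypoxia response gene, with 16640 against 1338, and by SLC38A2, an amino acid transporter, with 16381 against 12374. TNS4 thus had a far broader peak over the TSS in NT, and CTSB and NDRG1 far broader peaks in TAM. Other TAM peaks inside the NT peak of TNS4 were not counted.

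Among pairs of peaks that overlapped only each other, the strongest widening (log2 ratio 4.21) held no main TSS. S100A9, a calcium-binding alarmin of inflamed epithelium, had the next, with 368 bases in NT and 5039 in TAM. SOCS3, the feedback inhibitor of STAT3, had 460 bases in NT and 5644 in TAM (log2 ratio 3.62). DKK1, a secreted Wnt antagonist, had the strongest narrowing, from 5633 bases in NT to 129 bases in TAM (-5.45), and the remnant lay 519 bases downstream of its main TSS. DKK1 RNA was 103 and 129 FPKM in NT and 3.50 and 6.35 in TAM (log2 fold change -4.54, edgeR adjusted p = 0.00599). BRICD5, whose peak went from 3103 to 149 bases, was the only other of the 5 most narrowed pairs with a protein-coding main TSS, and its RNA was 14.4 and 12.4 FPKM in NT and 15.1 and 15.4 in TAM.

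Genes were then classed by whether a peak of each list held the main TSS. Of 62259 genes, 9920 had both peaks, 1988 an NT peak only, 371 a TAM peak only and 49980 neither. Among the 20136 protein-coding genes the counts were 8102, 1407, 283 and 10344. Of the 1988 NT only genes, 1299 had a TAM peak within 1000 bases of the TSS, at a median distance of 109 bases, and 689 had none. In the TAM only class 187 genes had an NT peak within 1000 bases and 184 had none. With the 1000-base window in place of the TSS itself the NT only class held 1101 genes, while the TAM only class held 353. The lists with TPL covered 81.2% (NT + TPL) and 80.9% (TAM + TPL) of the TSSs with both peaks, 42.5% and 34.0% of the NT only TSSs, and 25.3% and 29.9% of the TAM only TSSs.

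Peaks of the NT list that lacked a TAM partner were found on each chromosome tabulated, with shares from 11% on chromosome 10 to 20.1% on chromosome 22, and with 26.8% (84 of 313 peaks) on the X chromosome. The X chromosome also had the highest share of TAM peaks without an NT partner, 9.96% of 271 peaks against 3.78% to 7.24% elsewhere.

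The RNA behind the peaks was measured to a depth between 8099426 and 8349448 expected counts in the 4 DMSO libraries. Expected counts are the reads that RSEM assigns to each gene, and FPKM divides them by transcript length and library total. The cells bore the markers of basal breast epithelium: KRT5 reached 6250 and 5776 FPKM in NT and 1308 and 1308 in TAM, and KRT17, CDH3 and SFN were at 63.9 FPKM or more in every DMSO library, while KRT14, at 148 to 604 FPKM, and TP63 had no peak over the main TSS in either list. Of 17 markers of other cell types, 16 had no peak in either list and 1, CD68, had both, at 47.2 and 47.1 FPKM in NT and 301 and 281 in TAM. CD68 is a lysosomal protein that many cells make, and PTPRC, the leukocyte surface marker, stayed at 0.160 to 0.710 FPKM.

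Over all 16948 genes tested with edgeR's quasi-likelihood test (called where the Benjamini-Hochberg adjusted p was 0.001 or less and the RNA differed by 1.2 or more on the log2 scale), 64 genes (0.378%) were called higher and 47 (0.277%) lower in TAM. In bulk RNA, fewer cells with a transcript and less of it per cell cannot be told apart. At an adjusted p of 0.05 with the same fold, 428 genes (2.53%) were higher and 398 (2.35%) lower. The stricter calls rest on both replicates, since with either NT library left out 0 genes were called by edgeR (2629 and 2643 had an unadjusted p under 0.05) and with either TAM library left out 3 genes, STC1, SERPINE2 and SERPINB3, were, whereas DESeq2 on all libraries called 391 higher and 354 lower. At the adjusted p of 0.05 between 194 and 215 genes were higher and between 191 and 224 lower with a library left out.

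Genes with a TAM peak only held more higher than lower calls. Genes with an NT peak only held more lower than higher calls at the stricter threshold, and nearly equal numbers at the looser one over all libraries. Of 284 tested genes with a TAM peak only, 12 (4.23%) were called higher and 1 lower, against the backgrounds of 0.378% and 0.277%. Of 1424 tested genes with an NT peak only, 3 (0.211%) were called higher and 13 (0.913%) lower. Of 8122 tested genes with both peaks, 26 (0.320%) were higher and 12 (0.148%) lower. Of 5304 tested genes with neither peak, 23 (0.434%) were higher and 18 (0.339%) lower. This class thus held 23 of the 64 higher and 18 of the 44 lower calls at genes with a main TSS. With the looser threshold, 159 genes with neither peak were higher and 189 (3.56%) lower. At the adjusted p of 0.05, 36 of the TAM only genes (12.7%) were higher and 8 (2.82%) lower, and 60 of the NT only genes (4.21%) were higher and 62 (4.35%) lower, so that in the NT only class both directions were then about as common. With a library left out these ranged over 18 to 22 and 2 to 7 for TAM only, and over 20 to 25 and 32 to 40 for NT only. The median log2 fold changes were 0.12 for TAM only, -0.07 for NT only, 0.01 for both and -0.13 for neither, against -0.03 over all tested genes, and most genes of each class did not pass the test.

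The classes were then divided by whether the other list had a peak nearby. All 12 higher calls of the TAM only class were among its 148 tested genes with no NT peak within 1000 bases, whose median log2 fold change was 0.24 (quartiles -0.27 and 1.32). At the adjusted p of 0.05, 30 of these (20.3%) were higher and 6 lower. Among the 136 tested TAM only genes with an NT peak within 1000 bases the median was 0.05, with 0 calls in either direction by edgeR at 0.001 and 6 higher and 2 lower at 0.05. Of the 545 tested NT only genes with no TAM peak within 1000 bases, 9 (1.65%) were called lower and 1 higher, with a median of -0.22, and at 0.05 there were 42 lower and 19 higher. The 879 with a TAM peak within 1000 bases had 4 genes (0.455%) called lower and 2 higher, a median of -0.01 and, at 0.05, 41 higher and 20 lower. The box plot of RNA change by class shows the wide upper range of TAM only genes without a nearby NT peak.

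**Figure D2:**
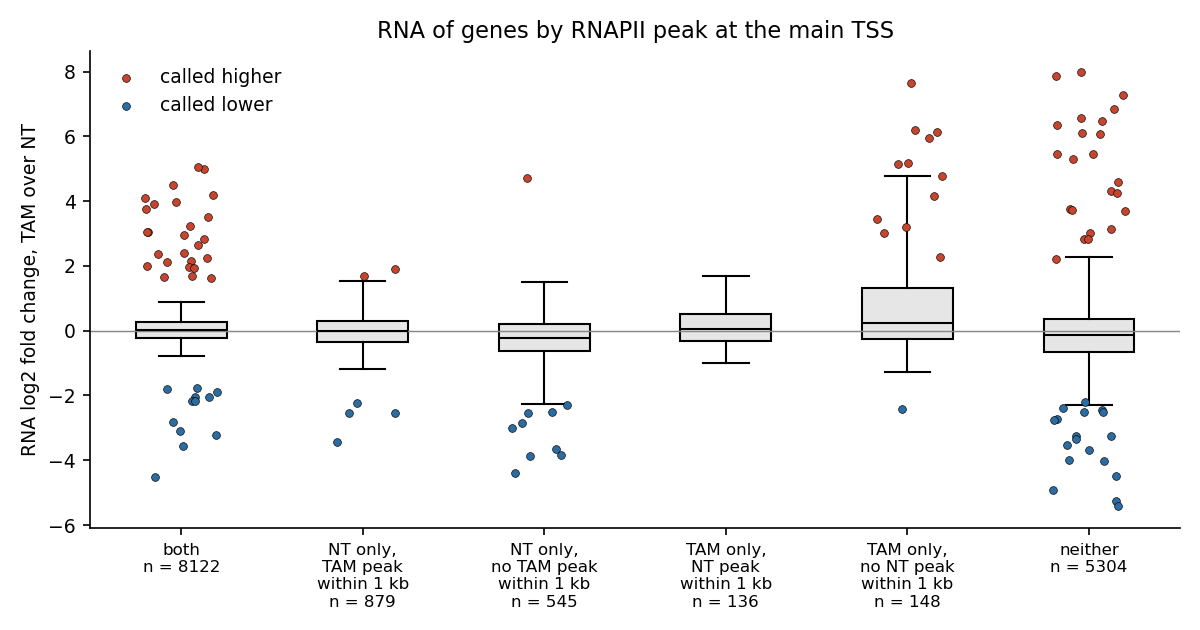
Log2 fold change of RNA (TAM over NT, edgeR) for tested genes by peak over the main TSS, with the NT only and TAM only classes divided by whether the other list had a peak within 1000 bases. Boxes give the quartiles and median, whiskers the 5th and 95th percentiles, and points the called genes. The 12 red points of TAM only genes all belong to those with no NT peak within 1000 bases, where the upper quartile was 1.32.

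The TAM only genes called higher with the greatest rise in RNA included STC1, SERPINE2 and TNC. STC1, a secreted glycoprotein hormone, was at 2.91 and 2.64 FPKM in NT and 543 and 553 in TAM, a log2 fold change of 7.64 ± 0.168 (SE; n = 2 per group; edgeR adjusted p = 1.18e-05), under a TAM peak of 1400 bases. SERPINE2, an extracellular inhibitor of thrombin and urokinase, was at 2.40 and 2.52 FPKM in NT and 148 and 153 in TAM (5.95 ± 0.156, edgeR adjusted p = 1.94e-05), under a peak of 175 bases at chr2:224903938-224904112. TNC, the matrix glycoprotein tenascin C, was at 0.880 and 1.05 FPKM in NT and 75.9 and 56.9 in TAM (6.12 ± 0.275, edgeR adjusted p = 9.13e-05), with a 309-base peak. In each of these genes both TAM libraries lay far above both NT libraries, and the nearest listed NT peak was 81611 bases or more from the TSS.

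Further TAM only genes with higher RNA were SERPINB3, SERPINB4, SERPINA1 and LINC00520. SERPINB3, an inhibitor of cysteine proteases made by squamous epithelium, was at 22.5 and 19.4 FPKM in NT and 712 and 747 in TAM (5.14 ± 0.152, edgeR adjusted p = 3.07e-05), under a peak of 5875 bases. Its neighbour SERPINB4 was at 5.93 and 10.03 FPKM in NT and 570 and 593 in TAM, under a peak of 5593 bases. The paralogs are near identical, so the split of reads between them is uncertain. SERPINA1, the secreted inhibitor of neutrophil elastase, was at 54.3 and 44.9 FPKM in NT and 1326 and 1376 in TAM (4.78 ± 0.172, edgeR adjusted p = 5.79e-05), under a peak of 2948 bases. S100A8, the partner of S100A9 in calprotectin, was at 70.6 and 47.4 FPKM in NT and 1609 and 1764 in TAM, under a peak of 3276 bases. Its adjusted p of 0.00118 by edgeR missed the call, and the values are those of 1 of 5 entries for the symbol. The long non-coding RNA LINC00520 was at 0.490 and 0.670 FPKM in NT and 18.8 and 23.1 in TAM. Of these 8 genes, from STC1 to LINC00520, all but SERPINA1 had a TAM + TPL peak over the TSS as well, and 0 had an NT + TPL peak.

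A TAM peak without an NT peak did not go with higher RNA at every gene. HES2, a transcriptional repressor of the Hairy family, was at 12.8 and 12.6 FPKM in NT and 2.11 and 2.58 in TAM, under a TAM peak of 139 bases, and was the only call lower in the class (-2.42 ± 0.166, edgeR adjusted p = 0.000509). ROS1, a receptor tyrosine kinase, and MAPK3, the kinase ERK1, were lower at the adjusted p of 0.05. MAPK3 was at 20.02 and 18.8 FPKM in NT and 5.97 and 4.66 in TAM, and an NT peak lay 55 bases upstream of its TSS. The TAM only genes with the most RNA included TIMP1, a metalloproteinase inhibitor, at 3014 and 2099 FPKM in NT and 2639 and 2752 in TAM, and RPS18, a ribosomal protein gene, at 1410 and 1184 in NT and 1938 and 2083 in TAM. TIMP1 had an NT peak 784 bases downstream of the TSS and RPS18 none listed within 146337 bases, and RPS18 reads may be shared with processed copies.

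The NT only genes called lower with the greatest fall in RNA included ID3, SYT8, MMP28, CLU and TRNP1. ID3, an inhibitor of basic helix-loop-helix factors, was at 40.4 and 40.2 FPKM in NT and 2.61 and 2.80 in TAM (-3.88 ± 0.177, edgeR adjusted p = 9.13e-05), under an NT peak of 998 bases. SYT8, a synaptotagmin, was at 184 and 134 FPKM in NT and 8.19 and 6.74 in TAM (-4.40 ± 0.251, edgeR adjusted p = 0.000238). MMP28, a secreted metalloproteinase, was at 24.95 and 20.4 FPKM in NT and 1.29 and 2.11 in TAM, and its call (edgeR adjusted p = 0.000961) was lost with library size, upper quartile or DESeq2 size factors as the scaling. CLU, the secreted chaperone clusterin, was at 56.4 and 52.0 FPKM in NT and 4.8 and 3.73 in TAM (-3.65 ± 0.264, edgeR adjusted p = 0.000601). TRNP1, a nuclear regulator of proliferation, was at 73.9 and 67.9 FPKM in NT and 5.40 and 7.62 in TAM. Its TSS was 3 bases from a TAM peak, so that its class turned on the edge of that peak. With TPL, ID3 and CLU had a peak over the TSS in both lists, TRNP1 in NT + TPL only, and SYT8 and MMP28 in neither.

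CLDN1 and SAA1 passed at the adjusted p of 0.05 but missed the stricter call. CLDN1, a tight junction protein, was at 184 and 221 FPKM in NT and 7.80 and 8.33 in TAM (-4.63 ± 0.440, edgeR adjusted p = 0.00167), under an NT peak of 352 bases (chr3:190039971-190040322) with no listed TAM peak within 191306 bases. SAA1, an acute phase protein, was at 2619 and 1850 FPKM in NT and 109 and 99.1 in TAM (-4.40 ± 0.461, edgeR adjusted p = 0.00251), under an NT peak of 918 bases. SAA1 has a near-identical neighbour, SAA2, so its reads may be shared. Neither CLDN1 nor SAA1 had a peak over the TSS in a list with TPL, while SOX9 had one in both. SOX9, a transcription factor of epithelial progenitors, was at 8.90 and 9.72 FPKM in NT and 0.570 and 1.77 in TAM, with an adjusted p of 0.0188 by edgeR and a range of 0.0191 to 0.092 with a library left out.

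In the opposite direction, PHGDH had an NT peak only and higher RNA in TAM. PHGDH, the first enzyme of serine synthesis, was at 2.32 and 1.77 FPKM in NT and 53.5 and 53.9 in TAM (4.73 ± 0.211, edgeR adjusted p = 9.13e-05). Its NT peak was 186 bases wide (chr1:120254477-120254662), and the nearest listed TAM peak was 63261 bases away. The other 2 higher calls of the class were TPX2, a spindle assembly factor, at 4.08 and 3.88 FPKM in NT and 14.02 and 15.2 in TAM, and PITPNC1, a phospholipid transfer protein, at 4.71 and 4.70 in NT and 14.4 and 15.6 in TAM. TPX2 had a TAM peak 86 bases upstream of its TSS and PITPNC1 one 509 bases downstream, and both calls were lost when libraries were scaled by size alone. Several NT only genes with much RNA did not differ in it beyond the test. RPS28 was at 2848 and 1990 FPKM in NT and 2948 and 2971 in TAM, and SLC25A6, a mitochondrial ADP/ATP carrier, at 510 and 458 in NT and 547 and 531 in TAM, with no listed TAM peak within 60659 bases but a TAM + TPL peak over the TSS.

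**Figure D3:**
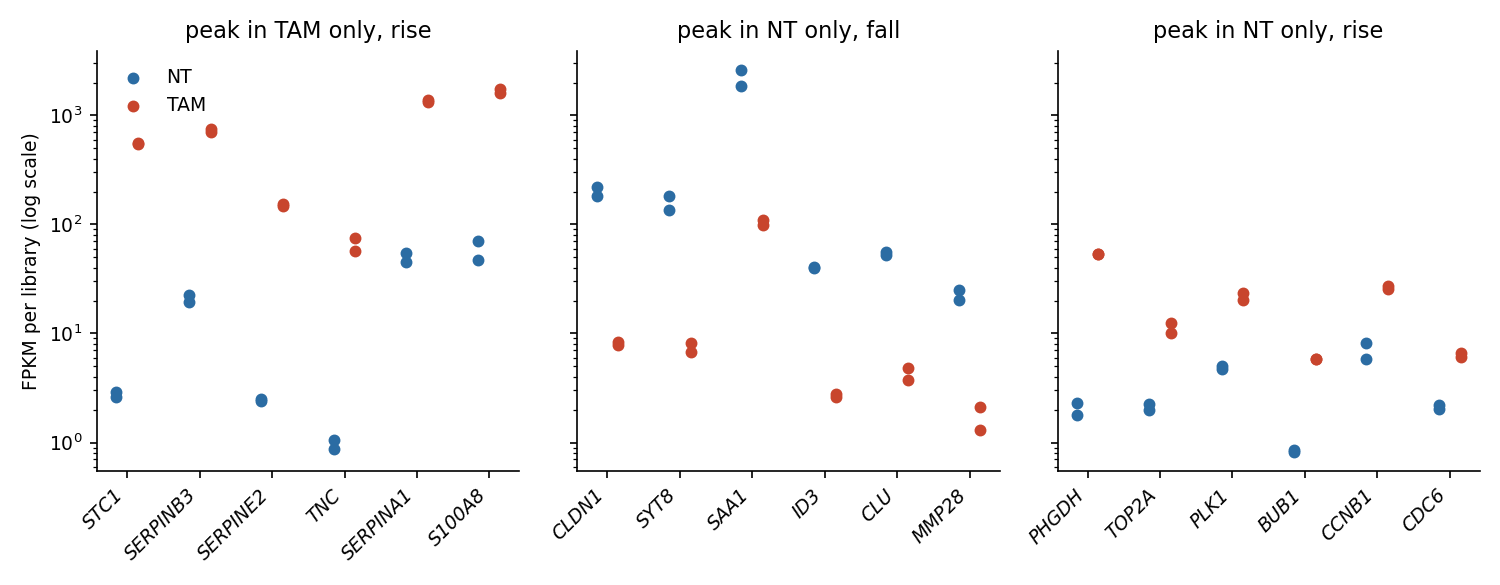
FPKM of each DMSO library (log scale) for genes with a peak over the main TSS in TAM only and higher RNA in TAM (left), in NT only and lower RNA (middle), and in NT only and higher RNA (right). Every point is 1 library, 2 per group. The genes were chosen for their difference in RNA, as STC1 at 2.91 and 2.64 against 543 and 553 FPKM.

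Cell cycle genes held many NT only promoters. Of 20 genes of the G1/S transition and DNA replication, 11 had both peaks, 8 an NT peak only, 0 a TAM peak only and 1 neither. Of 20 mitosis genes, 9 had both, 9 an NT peak only, 0 a TAM peak only and 2 neither. Across protein-coding genes 6.99% had an NT peak only. Of the 17 cell cycle genes with an NT peak only, 8 had a TAM peak within 1000 bases (3 of replication and 5 of mitosis). Where both peaks were present the TAM peak was the narrower at every one of these genes, with a median log2 width ratio of -1.51 for replication and -1.68 for mitosis genes, against -0.52 over the 8122 tested genes with both peaks. UBE2C, which extends ubiquitin chains for the anaphase-promoting complex, went from 958 bases to 178, and CDK1, the kinase that drives entry into mitosis, from 733 to 160.

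The RNA of many of these genes was higher in TAM. At the adjusted p of 0.05, 10 of 20 tested replication genes and 15 of 20 tested mitosis genes were higher and 0 were lower by edgeR, against backgrounds of 2.53% and 2.35%, and at 0.001 UBE2C alone was called. With a library left out the counts were 1 to 4 and 8 to 10 higher, and 0 lower, where 17 and 19 genes were higher and 0 lower at an unadjusted p of 0.05 over all libraries (DESeq2 called 9 and 17 higher and 0 lower). The median log2 fold changes were 1.42 and 2.09. PLK1, a mitotic kinase, had an NT peak of 611 bases and was at 4.77 and 4.99 FPKM in NT and 23.6 and 20.4 in TAM (2.19 ± 0.196, edgeR adjusted p = 0.00131). TOP2A, the topoisomerase that untangles chromosomes, was at 2.26 and 1.97 FPKM in NT and 10.1 and 12.4 in TAM. BUB1, a spindle checkpoint kinase, was at 0.820 and 0.850 FPKM in NT and 5.80 and 5.85 in TAM, with a TAM peak 25 bases upstream of its TSS. MCM2 and CDC6, of the origin licensing machinery, and CCNE1, a G1/S cyclin, rose likewise at the adjusted p of 0.05, to 6.68 and 6.13 FPKM from 2.22 and 2.03 in the case of CDC6. In PLK1, TOP2A, BUB1, MCM2, CDC6 and CCNE1 no TAM peak was thus listed over the TSS while the RNA rose. For BUB1 and MCM2 a TAM peak lay 25 and 90 bases upstream, so that their class turned on a peak edge. Of these genes only CDC6 had a TAM + TPL peak over the TSS.

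Most genes of the STAT3 and NF-kB lists had peaks in both conditions, and some of these were wider in TAM. Of 16 genes of the IL6 and STAT3 loop, 11 had both peaks, 2 (IL6R and LIF) an NT peak only and 3, IL6 itself among them, neither. Their median log2 width ratio was -0.03 and 5 of 11 peaks were wider in TAM, against 9.69% of all tested genes with both. SOCS3 was at 12.8 and 14.4 FPKM in NT and 268 and 222 in TAM (4.19 ± 0.192, edgeR adjusted p = 9.13e-05). BCL3 and CEBPB were higher at the adjusted p of 0.05 and PIM1, a kinase induced by STATs, was lower. That made 3 higher and 1 lower of 15 tested, against 2.53% and 2.35% of all genes, and 1 higher and 0 to 1 lower with a library left out. Of 20 NF-kB and chemokine genes, 14 had both peaks, 1 (TNFAIP2) an NT peak only and 5 neither, and 7 of the 14 were wider in TAM. At the adjusted p of 0.05, 1 of 18 tested (CXCL3) was higher and 0 lower by edgeR, against 2.53% and 2.35% of all genes. At an unadjusted p of 0.05, 7 were higher and 2 lower. CXCL3, a neutrophil chemokine, had 645 bases in NT and 4665 in TAM and was at 43.8 and 50.6 FPKM in NT and 249 and 233 in TAM (edgeR adjusted p = 0.000771). CXCL1 went from 1710 to 5054 bases, and its RNA, at 142 and 149 FPKM in NT and 418 and 432 in TAM, did not pass the test (edgeR adjusted p = 0.0598). Among those narrower in TAM, IL1B went from 8553 to 2844 bases, at 154 and 142 FPKM in NT and 65.7 and 81.1 in TAM. NFKBIA went from 5934 to 3058 bases, at 301 and 261 FPKM in NT and 429 and 423 in TAM. IL1B and NFKBIA did not pass the test either (edgeR adjusted p = 0.0736 and 0.059).

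Of 19 interferon-stimulated genes, 7 had both peaks, 1 an NT peak only, 4 a TAM peak only (IFI6, IFIT1, OAS1 and IFI27) and 7 neither, against 1.41% TAM only across protein-coding genes. None of the 4 had an NT peak within 1000 bases. Their TAM peaks were 187 to 327 bases wide. At the adjusted p of 0.05, 7 of 19 tested were higher and 0 lower by edgeR, against 2.53% and 2.35% of all genes, with a median log2 fold change of 1.23. At 0.001 edgeR called 0 (13 were higher and 0 lower at an unadjusted p of 0.05, and DESeq2 called 6 higher and 0 lower), and with any library left out 1 gene was higher at 0.05. IFIT1, which binds foreign RNA caps, was at 0.750 and 0.730 FPKM in NT and 3.09 and 3.82 in TAM, and IFI6 at 14.7 and 10.6 in NT and 39.7 and 53.8 in TAM. IRF7, the factor that amplifies interferon production, had the NT peak only and was at 2.16 and 2.71 FPKM in NT and 10.4 and 8.84 in TAM.

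Of 20 hypoxia and glycolysis genes, 17 had both peaks, 1 (PFKFB4) a TAM peak only and 2 neither, and 10 of the 17 were wider in TAM. PFKFB3, which makes the activator of phosphofructokinase, had 467 bases in NT and 2142 in TAM and was at 7.46 and 7.56 FPKM in NT and 33.4 and 31.3 in TAM (2.16 on the log2 scale, edgeR adjusted p = 0.000347). VEGFA, the endothelial growth factor, had 4267 and 5784 bases and was at 17.9 and 19.1 FPKM in NT and 74.0 and 74.6 in TAM (1.99 ± 0.130, edgeR adjusted p = 0.000439). In all, 2 of 20 tested were called higher and 5 at the adjusted p of 0.05 (3 to 5 with a library left out), against 0.378% and 2.53% of all genes, with 0 lower at either by edgeR (1 was lower at an unadjusted p of 0.05, and 0 by DESeq2). PFKFB4, of which 1 of 4 entries was used, was listed at 0 in both NT libraries and at 1.54 and 3.30 FPKM in TAM, and did not pass the test.

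Of 22 epithelial identity genes, 11 had both peaks, CLDN1 an NT peak only, DSP a TAM peak only and 9 neither. At the adjusted p of 0.05, 9 of 20 tested were lower (5 to 7 with a library left out) and 0 higher by edgeR, against 2.35% and 2.53% of all genes (1 was higher at an unadjusted p of 0.05, and 0 by DESeq2), and KRT5 and KRT17 were called lower although their peaks stayed broad, at 8264 bases in NT and 7878 in TAM for KRT5 and 7080 and 6898 for KRT17. Of 22 matrix and invasion genes, 11 had both peaks, TNC and SERPINB2 a TAM peak only and 9 neither. THBS1, the matrix protein thrombospondin, had a peak over the TSS of 19305 bases in NT and 3715 in TAM. Its RNA was at 69.9 and 128 FPKM in NT and 18.9 and 20.3 in TAM (lower at the adjusted p of 0.05). ITGA5, the fibronectin receptor chain, widened from 275 to 1317 bases, at 74.9 and 76.3 FPKM in NT and 139 and 127 in TAM. Among 18 regulators of the epithelial-mesenchymal transition 9 had both peaks, ID3 an NT peak only, TWIST1 a TAM peak only and 7 neither. Of 17 tested, 3 (ID2, ID3 and TGFBI) were called lower and 0 higher by edgeR, against 0.277% and 0.378% of all genes. ZEB1, with neither peak, was higher at the adjusted p of 0.05, at 1.56 and 1.63 FPKM in NT and 4.74 and 4.30 in TAM. With a library left out 0 to 1 were higher and 3 lower at 0.05. Of the cholesterol synthesis genes, 15 of 18 had both peaks and 2, LSS and DHCR7, an NT peak only. Of the 15, 0 were wider in TAM, where 9.69% of all tested genes with both peaks were. Their median log2 width ratio was -1.19, against -0.52 over those genes.

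Of 20 immediate early genes 15 had both peaks and 2, FOSL1 and IER2, an NT peak only, each with a TAM peak within 1000 bases. Of 18 p53 target and CDK inhibitor genes 12 had both peaks and 1 (TP53INP1) a TAM peak only. Of 19 S100 and differentiation genes 7 had both and S100A8 a TAM peak only. Of 13 ERBB receptors and ligands, 7 had both and 3 (ERBB3, LRIG1 and EREG) an NT peak only, and 0 of 12 tested were called at either threshold by edgeR or at 0.001 by DESeq2 (2 were higher and 4 lower at an unadjusted p of 0.05). Of 13 genes of IGF binding proteins and SOX factors, 2 had both, 4 (IGFBP6, IGFBP7, SOX9 and SOX12) an NT peak only and SOX4 a TAM peak only. Of 25 ribosomal protein genes 24 had both peaks and RPS18 a TAM peak only. All 24 were narrower in TAM, where 9.69% of all tested genes with both peaks were wider. Their median log2 width ratio was -1.51, against -0.52 over those genes. Of the 25, 0 passed at either threshold by edgeR or at 0.001 by DESeq2 (2 were higher and 0 lower at an unadjusted p of 0.05). Of the 20 genes with a main TSS that the study names, 12 had both peaks, CLU, SOX9 and FAM111B an NT peak only and F2R a TAM peak only. FAM111B was at 1.48 and 2.12 FPKM in NT and 8.04 and 7.23 in TAM.

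The RNA of these lists is given at the adjusted p of 0.05 by edgeR, where 2.53% of all genes were higher and 2.35% lower. Among immediate early genes DUSP6, a phosphatase of ERK, was higher and EGR3 and MYC were lower. Among p53 targets and CDK inhibitors CDKN1C alone passed, and was called lower. Of 15 tested S100 and differentiation genes 3 were higher, S100A8, S100A9 and S100P, and 3 lower, PI3, SLPI and TGM1, with 2 higher and 0 to 2 lower when a library was left out. Of the IGF binding proteins and SOX factors, IGFBP3, IGFBP6 and SOX9 were lower, and of the cholesterol synthesis genes HMGCS1, which makes HMG-CoA. With a library left out these counts were 0 to 2 and 0. Of 20 tested matrix genes 1, TNC, was higher and 2, MMP3 and THBS1, were lower. Of the genes the study names 3 of 20 tested were higher and 4 lower.

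**Figure D4:**
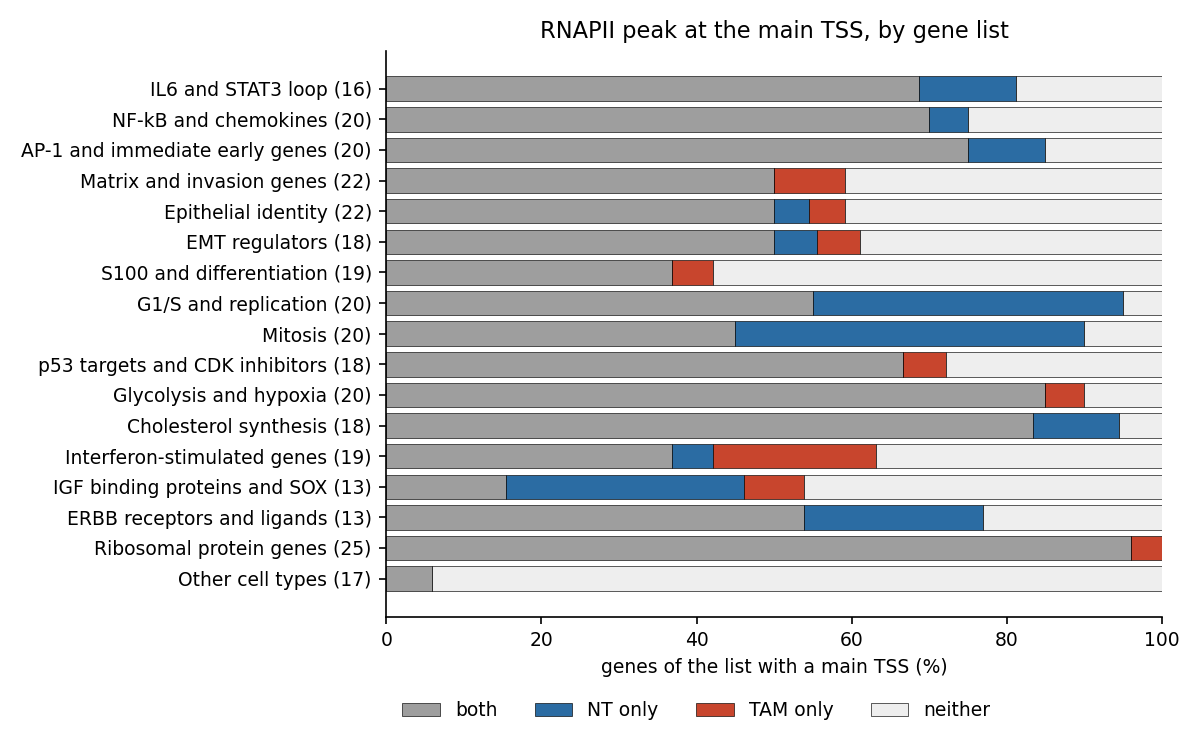
Share of the genes of each list (percent of genes with a main TSS, number in parentheses) with a peak over the main TSS in both lists, in NT only, in TAM only or in neither. The 2 cell cycle lists show the widest NT only stretches, with 8 and 9 of 20 genes, and the interferon-stimulated genes the widest TAM only stretch, with 4 of 19.

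Where both lists had a peak, genes called higher in TAM were mostly wider there. Widths are of the peak over the main TSS, whatever other TAM peaks the NT peak overlapped. The 26 genes called higher in TAM had a median width of 615.5 bases in NT and 1457 in TAM, and 23 of them (88.5%) were wider in TAM, against 9.69% of the 8122 tested genes with both peaks. The 12 genes called lower had medians of 1648.5 and 480.5 bases, and 0 of 12 were wider in TAM, near the share over all genes. With the looser adjusted p of 0.05 by edgeR, 68 of 149 higher genes (45.6%) and 9 of 114 lower genes (7.89%) were wider in TAM, with median log2 width ratios of -0.05 and -0.86. CTSL, a lysosomal cysteine protease, had 374 bases in NT and 1120 in TAM and was at 28.2 and 34.8 FPKM in NT and 674 and 739 in TAM (4.49 ± 0.158, edgeR adjusted p = 5.79e-05). CTSB was at 136 and 129 FPKM in NT and 1255 and 1215 in TAM (3.24 ± 0.122, edgeR adjusted p = 5.79e-05). TNFRSF6B, a decoy receptor for FAS ligand, had 6960 and 9140 bases and was at 45.3 and 33.3 FPKM in NT and 1313 and 1296 in TAM. EGLN3, a prolyl hydroxylase induced by hypoxia, had 289 and 459 bases and was at 0.230 and 0.230 FPKM in NT and 6.77 and 7.84 in TAM.

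In the other direction, CAV1, the coat protein of caveolae, went from 4095 bases to 700 over the TSS, with a further TAM peak inside the NT peak, and from 252 and 282 FPKM in NT to 28.3 and 33.3 in TAM (-3.11 ± 0.188, edgeR adjusted p = 0.000313). CCDC80, an extracellular matrix protein, had the largest fall of the class (-4.52 ± 0.199) under peaks of 815 and 581 bases. Over all tested genes with both peaks the relation was weak. Across 8122 genes, which are not independent replicates, Spearman's rho of the log2 width ratio and the RNA log2 fold change was 0.114 and Pearson's r 0.162. In the fifth of genes with the highest width ratio 83 were higher and 21 lower at the adjusted p of 0.05, in the fifth with the lowest ratio 23 were higher and 44 lower, and in the 3 between them 12 to 17 were higher and 9 to 24 lower. Width also went with the level of RNA, with a rho of 0.262 in NT and 0.212 in TAM across genes with a peak.

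**Figure D5:**
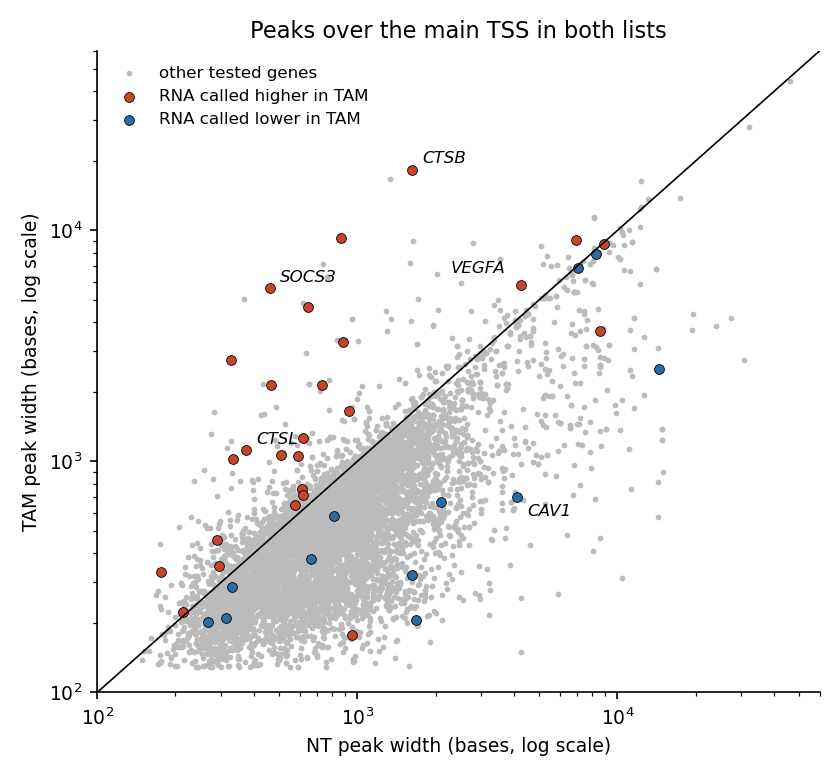
Width of the peak over the main TSS in NT and in TAM (bases, both axes logarithmic) for 8122 tested genes with both peaks, with the line of equal width. Red and blue points are genes whose RNA was called higher or lower in TAM. Grey points lie mostly below the line (9.69% were wider in TAM), while 23 of 26 red points lie above it and 0 of 12 blue points do.

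Whether a promoter was listed followed the level of RNA. Among tested genes under 1 FPKM (mean of the 4 DMSO libraries) 16.3% had an NT peak and 12% a TAM peak over the main TSS, and among those over 100 FPKM 90.4% and 89.3%. The NT only share was highest between 3 and 10 FPKM, at 12.8%, and lowest over 100 FPKM, at 3.20%. The TAM only share lay between 0.974% and 2.52% in every band.

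The promoter classes differed in base composition. Over the 300 bases from 250 before to 50 after the main TSS, the median GC content was 66.7% with both peaks, 67.0% in NT only, 66.3% in TAM only and 58.7% with neither, against 63.7% over all 20136 protein-coding promoters. The median ratio of observed to expected CpG was 0.887, 0.861, 0.782 and 0.464. A ratio of at least 0.6, as in CpG islands, was found at 94.8% of promoters with both peaks, at 89.3% in NT only and at 76.7% in TAM only, and at 69.9% of TAM only promoters with no NT peak within 1000 bases. The S100A8 window had a ratio of 0.1 and a TATAAA beginning 29 bases before the TSS, and the IFIT1 window a ratio of 0.26.

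Motifs were searched on both strands of the same 300 bases, and matches to different motifs may overlap. Those described are TGANTCA for AP-1, TTCNNNGAA for STAT factors, TATAAA for the TATA box, GGGCGG for the GC box, CCAAT for the CCAAT box, CCGGAAG for ETS factors and AAGATGG for YY1, and CRE, E-box and TEAD motifs were searched as well. A match describes the letters only. The CCAAT box was found at 42.8% of NT only promoters, 35.9% of those with both peaks and 32.9% in TAM only, against 35.9% of all. It was present in 15 of 20 replication and 18 of 20 mitosis genes. Other lists had many as well, with 14 of 18 cholesterol synthesis genes and 11 of 18 p53 target and CDK inhibitor genes. PLK1 held it 73 bases before the TSS, BUB1 on both strands at 79 and 54 bases, and TOP2A on the opposite strand at 93 and 53 bases. ETS letters were found at 25.3% of promoters with both peaks, 17.4% in NT only and 9.54% in TAM only, against 14% of all, and YY1 letters at 9.36%, 7.25% and 3.53%. AP-1 letters were found at 3.34% with both peaks, 4.05% in NT only, 6.71% in TAM only and 8.50% in TAM only without a nearby NT peak, and at 7.21% with neither peak, against 5.43% of all. STAT letters were found at 5.65%, 6.33% and 7.07%, and at 7.16% with neither peak, against 6.50% of all. The GC box, present 3 times in the 120 bases shown for SERPINE2, did not separate the occupied classes, at 77.8%, 77.6% and 76.7%.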

How the data were processed

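RNAPII ChIP-Seq and RNA-Seq of NT and TAM cells were used as deposited. The authors aligned ChIP reads to hg19 and used MACS to find peaks enriched over input. Their methods name SOAP2 and the submitters' notes BWA and MACS 1.4.2. Each peak name carries a 1 after the condition. Whether a list is from replicate 1 or pooled replicates is not given in the sources used here. The list names refer to a TSS in the peaks, but 90.1% of NT and 85.5% of TAM peaks held a GENCODE TSS. In both lists 99.6% lay within 1000 bases of one, the window in which the paper compared ChIP-Seq with RNA-Seq. The rule that selected the listed peaks is likewise not given. The lists have no header, and starts were read as 0-based and are printed 1-based. Expected counts and FPKM were made by the authors with Bowtie2 and RSEM and deposited per library, the expected counts without normalization and the FPKM scaled for length and depth. Genes not listed in a file were taken as 0.

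TSSs came from GENCODE release 44 on build 37. Expected counts were rounded and fitted in edgeR 4.0.16 (R 4.3.3; TMM, filter by group, 4 groups, 2 libraries each, Benjamini-Hochberg). RNA entries were joined by symbol, the entry with the most counts standing for a symbol, which gave 15134 tested genes with a main TSS. Standard errors come from the test statistic. Alternatives used DESeq2 1.42.0 and limma 3.58.1, and summaries Python 3.11.15. The replicate numbers did not pair NT with TAM libraries, so the fit had no block. The fits were tested on simulated data. The methods call the replicates independent and biological. ChIP signal was not analysed here.

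Alternatives were other scalings, filters, tests, TSS choices and overlaps, each library left out and the replicate block; the class counts at an adjusted p of 0.05 under the last 2 were chosen after seeing the data. Named genes were those of the gene lists in the NT only or TAM only class, those the study names, up to 5 largest rises and falls per class among calls (filled at an adjusted p of 0.05, with a mean of at least 1 FPKM and groups that do not overlap), the 5 genes with the most RNA in the NT only and TAM only classes, the 5 widest peaks per list and the 5 pairs with the largest and smallest width ratio. Other genes of the lists were named as examples after their values were seen. Members and lists were chosen with earlier results of these data known. Some items are not reported here.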

Additional observations from a re-analysis of the deposited data

How the results depend on the processing

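With 1 list per condition and no depth or height per peak, the lists could not be tested against replicate spread, and with 2 libraries per group the RNA calls depend on the spread estimate. The share of NT peaks with a TAM partner and of TAM peaks with an NT partner moved to 60.2% and 61.2% when 50% of both peaks had to be shared, to 89.6% and 94.8% with peaks within 1000 bases merged, and to 83.1% and 89.0% without the peaks below the first quartile of width in each list. The median widths in NT and TAM moved to 743 and 514 bases with merging and to 666 and 442 bases among peaks that paired only with each other. The NT only class held 1101 genes with a 1000-base window and 1305 genes at a mean of at least 1 FPKM. The cause of these shifts was not tested beyond the change itself.

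Counts of RNA calls are given as higher and lower, for all genes and then for both peaks, NT only and TAM only. DESeq2 gave 391 and 354, then 155 and 108, 50 and 59, and 35 and 7. A minimum of 10 counts in every library gave 153 and 170, then 79 and 68, 17 and 36, and 20 and 4. Counts summed over the entries of a symbol gave 230 and 233, then 91 and 74, 20 and 43, and 25 and 5. An adjusted p of 0.05 gave 428 and 398, then 149 and 114, 60 and 62, and 36 and 8. With the 4 DMSO libraries alone there were 38 and 22, then 14 and 5, 1 and 6, and 10 and 0. Without a filter the lower calls were 80, of which 26 had both peaks, 20 NT only and 2 TAM only, and 5 NT only genes were higher. With limma on log2(FPKM + 1), 81 were lower, 23 of them with both peaks. The NT only class had 1 higher call with scaling by library size, with any annotated TSS and with the 1000-base window. With a library left out, edgeR called 0 to 3 genes higher, 0 to 3 of them TAM only, and 0 lower, with 0 in the other classes, while 2369 to 2654 genes had an unadjusted p under 0.05. At an adjusted p of 0.05, a choice made after seeing the data, leaving out a library gave 20 to 25 higher and 32 to 40 lower in NT only, and 18 to 22 higher and 2 to 7 lower in TAM only.

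The replicate numbers did not pair the samples, since the deviations of same-numbered NT and TAM libraries correlated at r = -0.0663. The replicate block gave 28 and 9 calls, then 10 and 2, 1 and 2, and 7 and 0.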
